A study of Mus musculus with 20 samples.

Results

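Fmo1, Fmo2, Fmo4 and Fmo5 are 4 genes of the flavin-containing monooxygenase family, and they were read as 4 rows, chosen by symbol, of a liver count table with 46095 gene symbols. All 4 passed the low-count filter and were tested among 14440 genes. Livers came from 20 mice in 4 groups of 5. The WT mice were fed chow (WT chow) or a diet that induces non-alcoholic steatohepatitis (WT NASH). Pck1-cKO mice, which lack Pck1 in the liver, were fed chow (KO chow) or the NASH diet (KO NASH). Feeding lasted 24 weeks in all groups, and the mice were 31 to 33 weeks old. The labels number the mice, so each library was taken as a separate animal. The sources used here do not give the Cre line behind the knockout, the mouse strain, the sex or the make-up of the NASH diet. The series addressed what loss of hepatic Pck1, the cytosolic phosphoenolpyruvate carboxykinase of gluconeogenesis, does in diet-induced steatohepatitis.

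Flavin-containing monooxygenases sit in the membrane of the endoplasmic reticulum and oxidise soft nucleophiles, such as tertiary amines and thioethers. Each carries FAD, is reduced by NADPH and then binds oxygen as a stable hydroperoxide before any substrate arrives. Unlike the cytochrome P450 enzymes they need no separate reductase. FMO1 oxidises many drugs and forms taurine from hypotaurine. FMO2 is best known as the lung form, FMO4 is a little-studied form, and FMO5 stands apart in inserting oxygen next to carbonyl groups (Baeyer-Villiger oxidation). In mouse liver the family is known to differ between the sexes.

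Fmo4, Fmo1 and Fmo2 lie side by side on the minus strand of chromosome 1 (GRCm38, GENCODE M21), at chr1:162793188-162813972, chr1:162829561-162866610 and chr1:162874317-162898726. Fmo5 lies alone on the plus strand at chr3:97628804-97655282. No gene annotated in GENCODE M21 overlaps any of the 4. The annotation and the use of strand in the counting are not stated, so reads from unannotated transcripts at these rows were not examined. The transcripts of the 4 genes shared 0 runs of 50 bases with other Fmo genes. Of the 50-base runs of Fmo1, 11.9% also occurred in genes outside the family, against 0.781% for Fmo5 and 0 for Fmo2 and Fmo4, so a small part of the Fmo1 reads could have been split or dropped in counting.

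Sequence before a RefSeq start site is shown for Fmo2 and Fmo4, the members that were higher in KO chow than in WT chow. It is also shown for Fmo5, which was not. RefSeq windows (GRCm38.p6) run from 250 bases before to 50 bases after each start, and 3 of the 4 genes matched, with 2 windows for Fmo2. Only the bases outside annotated exons are printed, from chr1:162812654-162812799 (minus strand) for Fmo4, chr1:162898759-162899008 (minus strand) for Fmo2 and chr3:97628769-97628803 (plus strand) for Fmo5. For Fmo4 the 2 annotations differ: RefSeq puts the start at 162812549, while the GENCODE gene begins at 162813972 on the minus strand. The printed Fmo4 stretch therefore lies inside the GENCODE gene, between annotated exons, and not upstream of it. Capitals mark matches to the motifs named in the next paragraph.
Fmo4: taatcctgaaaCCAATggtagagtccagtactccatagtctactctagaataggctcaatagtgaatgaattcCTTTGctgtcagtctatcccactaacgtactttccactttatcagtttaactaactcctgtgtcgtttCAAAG
Fmo2: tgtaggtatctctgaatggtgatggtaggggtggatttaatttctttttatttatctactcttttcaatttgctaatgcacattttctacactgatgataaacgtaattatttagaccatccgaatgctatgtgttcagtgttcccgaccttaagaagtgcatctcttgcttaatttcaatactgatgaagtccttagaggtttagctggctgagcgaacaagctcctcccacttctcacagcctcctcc
Fmo5: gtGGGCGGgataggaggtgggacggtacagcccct

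The whole 300-base windows were searched on both strands for 13 motifs. These were TATAAA (the core promoter box), GGGCGG (bound by SP1), CCAAT (bound by NF-Y), TGTTTAC (FOXA), TGTTTGC (a variant for FOXA), GTTAAT (part of an HNF1 site), CAAAG (part of an HNF4 site), AGGTCA (nuclear receptor repeat), TTGCGCAA (C/EBP), CACGTG (E-box), GCGTG (core of the xenobiotic response element), TGACNNNGC (antioxidant response element) and TTCNNNGAA (STAT). The Fmo4 window held CCAAT (in 37.4% of all 32851 windows), TGTTTGC (5.07%), AGGTCA (16.3%) and 2 copies of CAAAG (53.9%). The upstream Fmo2 window held none of the 13. The downstream Fmo2 window, which lies almost wholly in annotated exons, held TGTTTAC (3.65%), AGGTCA, TTCNNNGAA (8.3%) and 3 copies of CAAAG, one of which shared a base with TGTTTAC. The Fmo5 window held TATAAA (13.6%), GGGCGG (35.7%) and CCAAT. Its TATAAA and CCAAT matches were on the reverse strand, with first bases at -195 and -211 from the RefSeq start, and both lie in annotated exon sequence. Of the 300 bases, 265 in the Fmo5 window and 125 in the Fmo4 window were in annotated exons. Fmo2 and Fmo4 thus shared AGGTCA and CAAAG, both of which are common. GC content was 42.7% in the Fmo4 window, 41.3% and 47.7% in those of Fmo2 and 56% in that of Fmo5, beside a median of 52.7% over all windows. A match is a description of letters, and binding was not measured.

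Levels are given as CPM, a gene's counts set against the total of its library on one common scale, with library sizes adjusted by the TMM method. The libraries held 9958935 to 20601955 counts, so that 1 CPM stood for 6.80 to 24.9 counts. Pck1 was lower in every KO library than in every WT library: its range was 1707 to 4641 CPM for WT chow and 1701 to 2975 CPM for WT NASH, while KO chow reached 458 to 861 CPM and KO NASH 300.4 to 542 CPM. The counts do not show which part of Pck1 was deleted. Sex, read from Y-linked genes and Xist, was uneven: all 5 WT chow mice were male, but 4 of 5 WT NASH mice were female (the male is replicate 4). Females were 2 of 5 in KO chow (replicates 3 and 5) but 1 of 5 in KO NASH (replicate 2). In 6 libraries (WT chow 3, 4 and 5, WT NASH 4, KO chow 4 and 5) longer genes were lower relative to the mean of all libraries, with a negative slope of log2 CPM on log2 exonic length, and in the other 14 the slope was positive. The hepatocyte markers Alb, Apoa1, Ttr, Cps1, Cyp2e1 and Hnf4a summed to 49080 to 129387 CPM, a level that matches the liver label. Of these markers, 0 of 6 passed the test in any comparison. Lung markers (Sftpc, Sftpb, Scgb1a1) were at 0 in the median library of every group and summed to at most 2.13 CPM, and kidney markers (Umod, Slc34a1, Aqp2) to at most 0.237 CPM.

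Per kilobase of exonic sequence, the order of levels in liver was Fmo5, Fmo1, Fmo2, Fmo4. Mean levels over the 20 libraries were 125.9, 49.2, 11.1 and 4.48 CPM per kilobase. By CPM, the 4 genes ranked 175, 403, 2035 and 5878 of the 14440 genes tested. In every group the mean levels per kilobase kept this order. In WT chow they were 178.6 ± 56.6 for Fmo5, 55.9 ± 20.3 for Fmo1, 6.34 ± 1.53 for Fmo2 and 3.34 ± 0.911 for Fmo4 (SD, n = 5). In KO chow, where the lower members were at their highest, they were 117 ± 24.2, 61.8 ± 29.6, 17.6 ± 3.81 and 8.39 ± 1.68 (SD, n = 5). Of the further family members, Fmo6 had 7 counts over all 20 libraries and Fmo9 had 0.

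**Figure D1:**
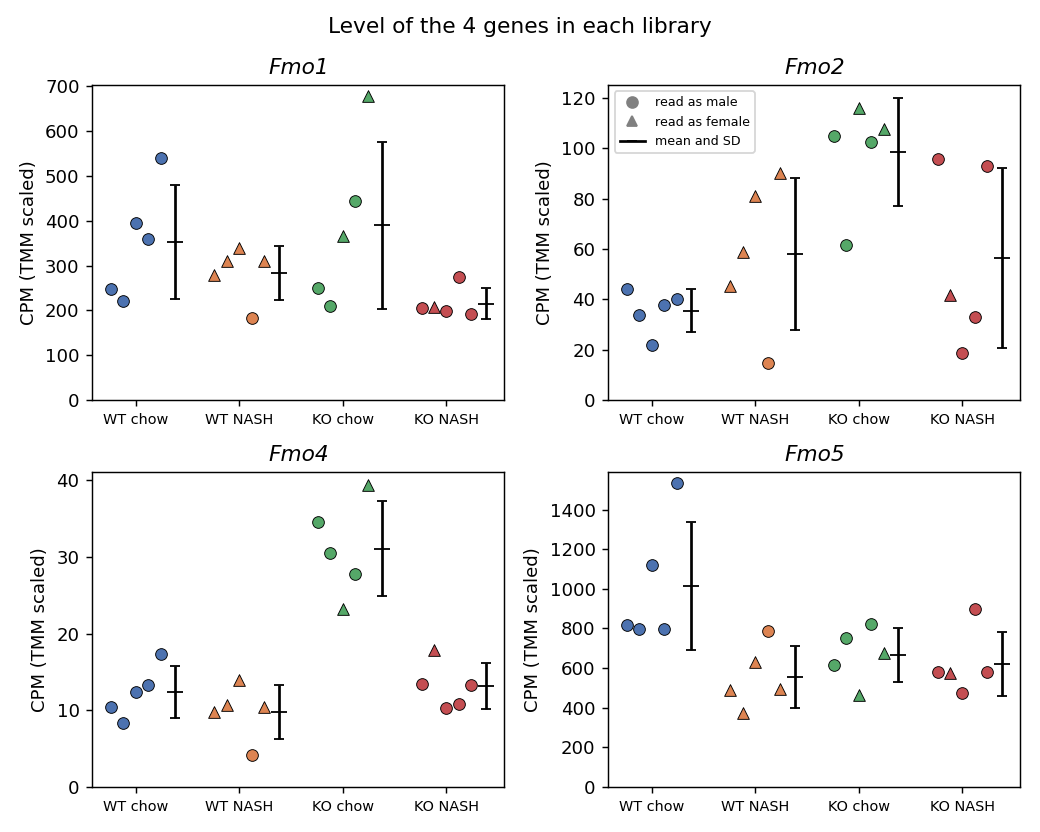
CPM (vertical axis, TMM scaled, from 0) of Fmo1, Fmo2, Fmo4 and Fmo5 in each of 20 libraries, replicates 1 to 5 from left to right within each group; circles are libraries read as male, triangles as female, and bars are mean and SD (n = 5). All 5 KO chow libraries of Fmo4 lie above every other library. Fmo2 in WT NASH and KO NASH spreads from below the lowest WT chow library to above KO chow replicate 2, but stays below the other KO chow libraries.

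On chow, Fmo4 was 2.51-fold and Fmo2 2.77-fold higher in KO livers than in WT livers, while Fmo1 and Fmo5 did not pass the test. Fmo4 was at 10.4, 8.4, 12.4, 13.3 and 17.4 CPM in WT chow replicates 1 to 5. In KO chow it was at 34.6, 30.5, 23.2, 27.7 and 39.4 CPM. Every KO chow library was higher than every WT chow library, and the lowest KO value stood clear of the highest WT value. The log2 fold change was 1.33 (SE 0.259, adjusted p = 0.00538), by the quasi-likelihood test of edgeR with Benjamini-Hochberg adjustment over all 14440 genes, which also gives the adjusted p-values that follow.

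Fmo2 was at 44.3, 33.7, 21.8, 37.7 and 40.2 CPM in WT chow. KO chow replicates 1 to 5 had 104.8, 61.5, 116.1, 102.7 and 107.9 CPM. These groups did not overlap either, and replicate 2 stood well below the other KO chow libraries, which lay close together. The log2 fold change was 1.47 (SE 0.427, adjusted p = 0.0474), just inside the threshold of 0.05. Leaving out any 1 library other than WT NASH 4, KO NASH 1, KO NASH 3 or KO NASH 5 ended this call, with adjusted p-values up to 0.122 and log2 fold changes of 1.35 to 1.60. Over all 34 alternatives the adjusted p ran from 0.0097 to 0.201, and 14 of them kept the call.

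Fmo1 did not differ beyond its spread between KO chow and WT chow (log2 fold change 0.14, SE 0.295, adjusted p = 0.827). Fmo5 had a log2 fold change of -0.61 (SE 0.253, adjusted p = 0.183), with an interval of -1.13 to -0.08 before adjustment. So 2 of 4 members passed the test, both higher, and 2 of 4 did not overlap between the groups. Over all genes 5.53% passed in this comparison, and 4.91% had no overlap.

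In a model that also had sex as a term, the Fmo4 difference was 1.14 (SE 0.247, adjusted p = 0.00908), and that of Fmo2 was 1.25 (SE 0.447, adjusted p = 0.111), where 5.84% of all genes passed. Among males alone, 3 KO chow against 5 WT chow, Fmo4 differed by 1.33 (SE 0.231, adjusted p = 0.00495) and Fmo2 by 1.34 (SE 0.433, adjusted p = 0.0824), where 6.23% of genes passed. The 3 KO chow males had Fmo4 at 27.7 to 34.6 CPM and the 2 females at 23.2 and 39.4 CPM, all above the WT chow males. One of 5 Kupffer and macrophage markers was higher in KO chow than in WT chow; the list summed to 353 to 977 CPM in KO chow and 235 to 878 CPM in WT chow, and its part in the Fmo differences was not tested. In bulk liver, fewer cells of a type and less RNA per cell cannot be told apart.

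In KO livers the NASH diet went with lower Fmo4. KO NASH replicates 1 to 5 had 13.5, 17.9, 10.3, 10.9 and 13.3 CPM of Fmo4. All 5 lay below every KO chow library, and all but replicate 2, at 17.9 CPM, lay within the range of WT chow. Fmo4 fell by 1.24 on the log2 scale (SE 0.258, adjusted p = 0.0171), to 0.424 of its KO chow level. The difference was -1.17 with sex as a term (SE 0.237, adjusted p = 0.0115) and -1.37 among males alone (SE 0.245, adjusted p = 0.0373).

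Fmo1 in KO NASH was at 205, 207, 198, 275 and 192 CPM. In KO chow it was at 250.4, 209, 365, 445 and 678 CPM. KO NASH was narrow and KO chow wide, and the groups overlapped only in that KO NASH replicate 4 exceeded KO chow 1 and 2. The log2 fold change was -0.85 (SE 0.297, adjusted p = 0.107). DESeq2 called this difference, at -0.88 (SE 0.302, adjusted p = 0.0444), beside 9.04% of all genes; over 35 alternatives the adjusted p ran from 0.0444 to 0.582. Within KO chow the libraries with a negative length slope had Fmo1 at 445 and 678 CPM and the other 3 had 209 to 365 CPM; in WT chow the ranges were 359.9 to 539.6 and 220.0 to 248 CPM. In WT NASH the order was the reverse, with 184 CPM in the negative-slope library and 279 to 339 CPM in the others, and KO NASH held none with a negative slope. Among the 14 libraries with a positive slope alone the difference was -0.35 (SE 0.177, adjusted p = 0.235), an alternative chosen after seeing the data. With the length slope as a term, alone or with sex, the difference stayed negative and was not called. Over all 35 alternatives it ran from -1.31 to -0.33. The part of the slope in the difference was not tested further.

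KO NASH libraries fell into a high and a low set for Fmo2, at 95.7, 41.9, 18.6, 33.2 and 93.2 CPM in replicates 1 to 5. Replicates 1 and 5 were above KO chow replicate 2, at 61.5 CPM, but below the other KO chow libraries, at 102.7 to 116.1 CPM. The remaining replicates were within or below the WT chow range. The log2 fold change to KO chow was -0.80 (SE 0.421, adjusted p = 0.261). Replicates 1 and 5 were also the closest of the pairs of libraries compared within a group, though they differed by more than sampling noise, and with both summed into 1 sample the change was -1.07 (SE 0.441, adjusted p = 0.203). Fmo5 was at 580.3, 577, 474, 898 and 579 CPM in KO NASH and differed from KO chow by -0.10 (SE 0.252, adjusted p = 0.832). So 1 of 4 members passed the test and 1 of 4 did not overlap, beside 3.29% and 8.5% of all genes. The model with sex called 3.98% of genes, and males alone gave 0.37%. One of 8 stellate and fibroblast markers and 1 of 5 cholangiocyte markers were higher in KO NASH, and 1 of 3 red blood cell markers was lower. Their summed levels were 366 to 590 CPM, 57.0 to 262 CPM and 28.5 to 82.1 CPM in KO NASH, against 226 to 1049 CPM, 36.7 to 253 CPM and 78.1 to 159 CPM in KO chow, and their part in the Fmo differences was not tested.

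**Figure D2:**
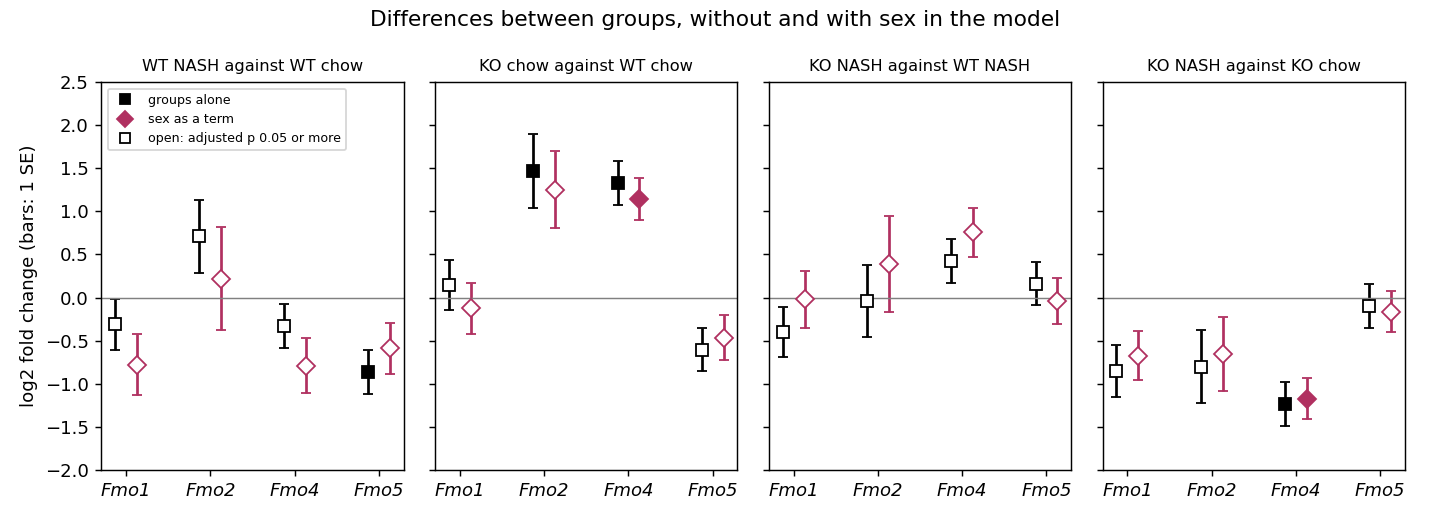
Log2 fold change (vertical axis, bars 1 SE) of the 4 genes in the 4 comparisons between groups of 5 mice; black squares come from the model with groups alone, red diamonds from the model with sex as a term, and filled symbols have an adjusted p under 0.05. Fmo4 is filled under both models for KO chow against WT chow and for KO NASH against KO chow, while Fmo2 and Fmo5 are filled once each and only without the sex term.

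In WT livers the NASH diet went with lower Fmo5, the most abundant of the 4. WT chow replicates 1 to 5 had 819, 797, 1121, 799 and 1534 CPM. WT NASH had 491, 375, 632, 785 and 495 CPM. The groups did not overlap, but by a narrow margin: the highest WT NASH library, replicate 4 and the only male, stood just under the lowest WT chow library. Fmo5 fell by 0.87 on the log2 scale (SE 0.254, adjusted p = 0.0473), to 0.548 of its WT chow level.

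Several settings ended that call. The difference with sex as a term was -0.59 (SE 0.295, adjusted p = 0.403). The single WT NASH male differed from the 5 WT chow males by -0.39 (SE 0.466, adjusted p = 0.743); its own spread is unknown and was taken to be that of the other groups, so this value has little bearing on the call. Leaving out any of 13 single libraries raised the adjusted p above 0.05, to at most 0.155, with differences of -1.04 to -0.67 over all 20 removals. Over all 34 alternatives the adjusted p ran from 0.000751 to 0.743, and 14 of them kept the call. The 7 libraries whose removal kept it were WT chow 1 and 2, WT NASH 4, KO chow 3, 4 and 5, and KO NASH 4. WT chow held no female, so within WT livers diet and sex are told apart by that single male alone.

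The other members did not pass the test in this comparison. Fmo2 in WT NASH was at 45.4, 59.0, 81.2, 14.6 and 90.3 CPM, with the 4 females above every WT chow library and the male below every one. Its log2 fold change was 0.71 (SE 0.421, adjusted p = 0.326). Fmo4 was at 9.75, 10.6, 14.0, 4.12 and 10.4 CPM, and here too replicate 4 was lowest (log2 fold change -0.33, SE 0.258, adjusted p = 0.468). Replicate 4 had the fewest counts of all libraries, a negative length slope and the male sex, and these cannot be told apart in 1 library. Fmo1 was at 279, 309.7, 339, 184 and 310.4 CPM (log2 fold change -0.31, SE 0.295, adjusted p = 0.562). So 1 of 4 members passed, and 1 of 4 did not overlap, beside 5.93% and 6.15% of all genes; with sex as a term 1.11% of genes passed. One of 5 Kupffer and macrophage markers and 1 of 3 T cell markers were higher in WT NASH, at summed levels of 332 to 709 CPM and 5.17 to 9.12 CPM against 235 to 878 CPM and 2.37 to 5.70 CPM in WT chow. One of 3 red blood cell markers was lower, at 22.4 to 172 CPM against 76.4 to 208 CPM. Their part was not tested.

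On the NASH diet, KO and WT livers did not differ in any member by the same test. The log2 fold changes were -0.40 for Fmo1 (SE 0.296, adjusted p = 0.424), -0.04 for Fmo2 (SE 0.418, adjusted p = 0.964), 0.42 for Fmo4 (SE 0.257, adjusted p = 0.318) and 0.16 for Fmo5 (SE 0.252, adjusted p = 0.735). Their 95% intervals, before adjustment, were -1.02 to 0.22, -0.91 to 0.83, -0.12 to 0.96 and -0.36 to 0.69. Those of Fmo2 and Fmo4 ended below the differences estimated on chow in the same model. That no longer held in the model with sex, where Fmo2 differed by 0.39 (SE 0.559) and Fmo4 by 0.76 (SE 0.283, adjusted p = 0.122) on the NASH diet, each within about 2 SE of its value on chow in that model. WT NASH was mostly female and KO NASH mostly male. At an unadjusted p under 0.05, 0 of 4 passed as well, beside 25.6% of all genes. DESeq2 called 0, beside 15.2% of genes, and limma voom 1, Fmo1, at -0.51 (adjusted p = 0.0384), beside 23.8%. All 4 genes overlapped between the groups. Of all genes 9.65% passed and 14.1% had no overlap; with sex as a term 4.33% passed. One of 5 endothelial markers and the 1 adipocyte marker tested were higher in KO NASH than in WT NASH, and 1 of 3 T cell markers and the 1 exocrine pancreas marker tested were lower. Summed levels were 144 to 224, 3.59 to 54.5, 1.63 to 5.51 and 3.33 to 4.45 CPM in KO NASH, against 112 to 169.5, 0.452 to 0.969, 5.17 to 9.12 and 11.7 to 107 CPM in WT NASH. Lep and Prss2, of the adipocyte and pancreas lists, were at 0 in all libraries, and the part of these markers was not tested. Mesothelial, B cell and smooth muscle markers had no call in any comparison.

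Whether the genotype difference depended on the diet (the interaction, NASH value minus chow value) was tested directly. It was -0.54 for Fmo1, -1.51 for Fmo2, -0.91 for Fmo4 and 0.77 for Fmo5 on the log2 scale, with SE of 0.418, 0.595, 0.363 and 0.357. Adjusted p-values were 0.819, 0.453, 0.463 and 0.588, so 0 of 4 passed, beside 0.139% of all genes. At an unadjusted p under 0.05, 3 of 4 passed (Fmo2 at 0.0193, Fmo4 at 0.021 and Fmo5 at 0.0438), beside 8.25% of all genes. DESeq2 called 0, beside 1.31% of genes, and limma voom with sample weights called 3 (Fmo2, Fmo4 and Fmo5), beside 13.5%. In the model with sex, where 0.0277% of genes passed, the 4 interactions were 0.10, -0.87, -0.38 and 0.43, so those of Fmo2, Fmo4 and Fmo5 were smaller and that of Fmo1 turned its sign. That Fmo4 passed the test for the knockout on chow and not on the NASH diet is therefore not shown by the edgeR test to be a difference between the diets.

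Sex itself was estimated within the groups that held both sexes. Males less females came to -0.56 for Fmo1 (SE 0.268, adjusted p = 0.679), -0.53 for Fmo2 (SE 0.458, adjusted p = 0.999), -0.51 for Fmo4 (SE 0.234, adjusted p = 0.617) and 0.38 for Fmo5 (SE 0.221, adjusted p = 0.859). None passed, beside 1.02% of all genes. The unadjusted p of this edgeR test was 0.0516 for Fmo1 and 0.0401 for Fmo4. Thus 1 of the 4 was under 0.05, beside 7.44% of all genes. By group means, males were lower than females for Fmo1 and Fmo2 in WT NASH and KO chow. In KO NASH they were higher, at 217.5 against 207 CPM and 60.2 against 41.9 CPM. Fmo4 was lower in males in WT NASH and KO NASH, and nearly level in KO chow (31.0 and 31.3 CPM). Fmo5 was higher in males in each group with both sexes. The WT NASH male is replicate 4 alone, with the fewest counts and a negative length slope, and KO NASH held 1 female.

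The ratio of Fmo5 to Fmo1 within a library does not depend on how libraries are scaled, and in WT NASH and KO chow, but not in KO NASH, its values lay apart by sex. The counts of Fmo5 were 2.22 to 3.62 times those of Fmo1 in WT chow and 2.4 to 3.26 times in KO NASH, where the female (replicate 2), at 2.79 times, lay among the males. In WT NASH the ratio was 1.76, 1.21, 1.87, 4.27 and 1.59 in replicates 1 to 5. The 4 females were below every WT chow library and the male was above every one. In KO chow it was 2.45, 3.60, 1.28, 1.85 and 1.00, with the 2 females (replicates 3 and 5) lowest. The WT NASH male also had the fewest counts and a negative length slope, and these cannot be told apart from its sex. In KO chow, replicates 4 and 5 had a negative length slope and replicate 3 a positive one. The mean log2 ratio was 1.55 ± 0.268 for WT chow and 0.95 ± 0.683 for WT NASH, then 0.88 ± 0.734 for KO chow and 1.51 ± 0.165 for KO NASH (SD, n = 5).

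By exact permutation tests (two-sided, 5 against 5, smallest possible p 0.00794), the log2 ratio differed by -0.60 for WT NASH against WT chow (p = 0.111), -0.67 for KO chow against WT chow (p = 0.103), 0.56 for KO NASH against WT NASH (p = 0.127) and 0.63 for KO NASH against KO chow (p = 0.111). Adjusted over the 4 comparisons, each exact p was 0.127. Without WT NASH replicate 4, the only WT NASH male, the exact tests gave -0.88 and 0.84 for the comparisons with WT chow and KO NASH. That leaves 4 WT NASH females against 5 WT chow males, or against 4 males and 1 female in KO NASH. Sex and group are then not told apart. Without KO chow replicate 2, a male, the exact tests gave -0.92 and 0.87 for the comparisons with WT chow and KO NASH. Both libraries had the highest ratio of their group. Each of these differences had an adjusted p of 0.0317. Each of the 4 comparisons passed in only 1 of 20 removals, with exact adjusted p-values up to 0.230. Among males alone the ratio differed by -0.21 between KO chow and WT chow (exact p = 0.464).

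**Figure D3:**
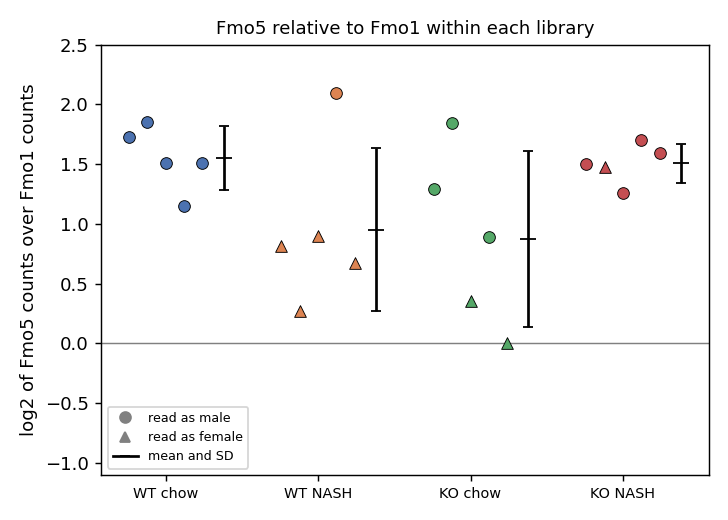
Log2 of the Fmo5 count over the Fmo1 count (vertical axis, pseudocount 0.5) in each of 20 libraries, by group; circles are read as male, triangles as female, bars are mean and SD (n = 5). WT NASH females lie at 0.27 to 0.90 and the WT NASH male at 2.09, while the 5 WT chow males lie at 1.15 to 1.86.

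Within groups some pairs of members had a positive r. The permutations shuffled the values over all libraries and did not allow for the group means subtracted, so their p-values are too small. Over the 20 libraries, with group means subtracted, Fmo1 and Fmo4 had r = 0.545 (permutation p = 0.0131, adjusted over 6 pairs 0.0394) and a Spearman rho of 0.504 (permutation p = 0.0244, adjusted 0.146). Fmo2 and Fmo4 had r = 0.591 (permutation p = 0.00707, adjusted 0.0394) and rho = 0.394 (permutation p = 0.0867, adjusted 0.260). Without the 2 libraries farthest from the median of the first gene, r was 0.587 for Fmo1 with Fmo4 and 0.219 for Fmo2 with Fmo4, so the latter relation rested on those libraries. Among the 13 males r was 0.499 and 0.375 (permutation, adjusted p = 0.240 and 0.305). The single WT NASH male equals its own group mean there, so it adds nothing to r. Fmo5 with Fmo1 had r = 0.244 over all libraries (permutation p = 0.299) and 0.746 among the males (permutation, adjusted p = 0.0221). The other 3 pairs had r of -0.28 to 0.29.

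The genes most like each member were those with the highest Pearson correlation of log2 CPM over 20 libraries, among 9096 candidate genes. Candidates had a mean over libraries of at least 5 CPM, and Fmo genes, predicted genes (Gm with digits) and Riken clones were left out. For Fmo4 they were Car2 (carbonic anhydrase, r = 0.891), Ddo (D-aspartate oxidase, itself a flavoenzyme, r = 0.877) and Det1 (r = 0.873). Car2 ranged from 28.8 to 61.5 CPM in KO chow, from 5.65 to 16.5 CPM in KO NASH, from 2.55 to 4.78 CPM in WT chow and from 1.32 to 8.01 CPM in WT NASH. As with Fmo4, the 5 KO chow libraries were above all others. For Fmo2 they were Nipal1 (a magnesium transporter, r = 0.869), Sp140 (0.759) and Tubgcp3 (0.747).

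Nipal1 was at 58.8 and 59.2 CPM in KO NASH replicates 1 and 5 and at 29.8, 25.6 and 14.8 CPM in the other three, the same split as in Fmo2. For Fmo1 the closest were Dctn5 (0.865), Zbtb38 (0.864) and Tsr2 (0.851), and for Fmo5 they were Rnf113a2 (0.856), Ncbp2 (0.847) and Ldah (a lipid droplet hydrolase, 0.844). With group means subtracted, r was 0.498 for Det1, so its likeness to Fmo4 lay largely in the group means, and 0.711 to 0.865 for the other 11 genes. Libraries share depth, sex and length slope, and the genes were picked for their r, which is given as a description.

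**Figure D4:**
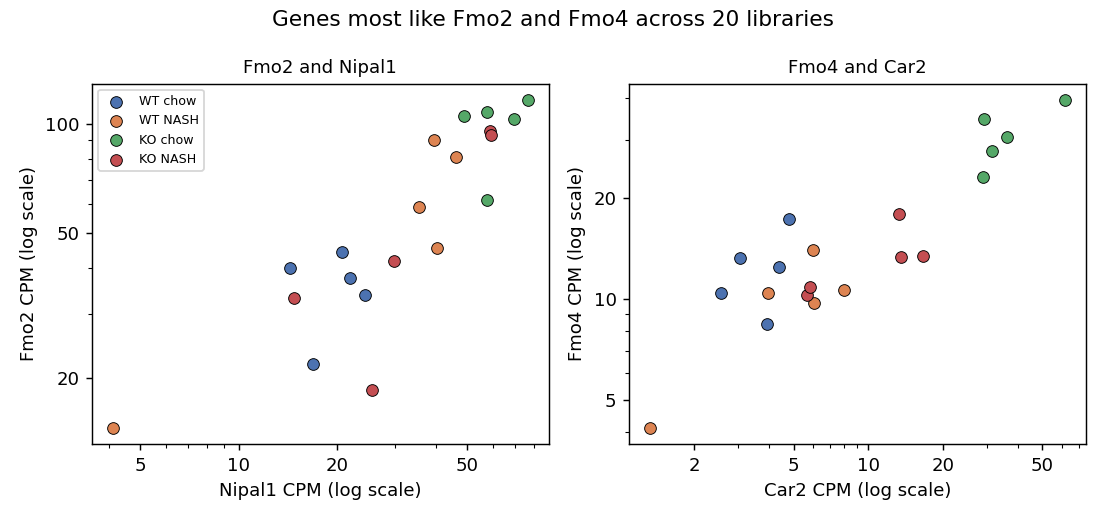
CPM of Fmo2 against Nipal1 and of Fmo4 against Car2 (all axes log scale), 1 point per library, coloured by group. KO chow libraries lie at the upper right for Fmo4 and Car2. For Fmo2 and Nipal1 they share that corner with KO NASH replicates 1 and 5, and KO chow replicate 2 lies below those 2 on Fmo2. Fmo2 in KO NASH splits with Nipal1 into 2 high and 3 low libraries, and WT NASH replicate 4 is at the lower left in both panels.

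The enzymes need FAD, made from riboflavin. Of 6 tested genes of FAD supply (Slc52a3 was not tested), 1 was higher and 1 lower in KO chow than in WT chow, with a median log2 fold change of 0.53 beside 0.00 over all genes, of which 5.53% were called. Slc52a2, a riboflavin transporter, was at 27.5 ± 11.5 CPM in KO chow against 7.69 ± 1.89 CPM in WT chow, and at 12.6 ± 1.68 CPM in KO NASH against 4.15 ± 1.98 CPM in WT NASH (SD, n = 5). It rose by 1.84 in KO chow against WT chow (SE 0.307, adjusted p = 0.0017) and by 1.58 in KO NASH against WT NASH (SE 0.309, adjusted p = 0.00356). From KO chow to KO NASH it fell by 1.13 (SE 0.298, adjusted p = 0.0436), and all 3 calls held with sex as a term.

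Slc25a32, which carries folate and FAD into mitochondria, rose by 1.90 in KO NASH against WT NASH (SE 0.382, adjusted p = 0.00448), from 0.962 ± 0.361 to 3.59 ± 1.88 CPM (SD, n = 5). Enpp3, an ectonucleotidase, fell by 1.09 in KO chow against WT chow (SE 0.290, adjusted p = 0.0317), and with sex as a term its adjusted p was 0.0658. Enpp1, a related ectonucleotidase, rose by 0.83 in WT NASH against WT chow (SE 0.246, adjusted p = 0.0498), and with sex as a term its adjusted p was 0.425. KO NASH against WT NASH thus had 2 of 6 higher and 0 lower, KO NASH against KO chow 0 higher and 1 lower, and WT NASH against WT chow 1 higher and 0 lower, beside 9.65%, 3.29% and 5.93% of all genes called; counts of 1 or 2 in so short a list say little about it.

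NADPH supply and microsomal electron transfer were followed in 12 genes, of which 1 was higher in WT NASH than in WT chow and 2 were lower in KO NASH than in WT NASH. No gene of the list passed in KO chow against WT chow or KO NASH against KO chow. Of all genes, 5.93% were called in WT NASH against WT chow and 9.65% in KO NASH against WT NASH, so 1 or 2 of 12 is close to the background and is no result about the list. Cyb5b, the cytochrome b5 of the outer mitochondrial membrane, rose by 1.27 in WT NASH (SE 0.220, adjusted p = 0.00202), from 156 ± 21.8 to 377 ± 18.4 CPM, and was lower by -0.77 in KO NASH than in WT NASH (SE 0.218, adjusted p = 0.0304). Cyb5a, the microsomal cytochrome b5, fell by 1.92 between those groups (SE 0.566, adjusted p = 0.0374), from 2397 ± 1745 to 634 ± 113 CPM (SD, n = 5). When sex was a term, Cyb5b in WT NASH kept an adjusted p of 0.0389, while the KO NASH differences had 0.111 and 0.0704.

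Taurine and hypotaurine genes, which surround the FMO1 reaction, were represented by 8 tested genes. Cdo1, the cysteine dioxygenase that starts taurine synthesis, fell by 1.48 in KO NASH against WT NASH (SE 0.358, adjusted p = 0.0144), from 2696 ± 1352 to 968 ± 169 CPM (SD, n = 5). Bhmt, which remethylates homocysteine, fell by 1.49 in WT NASH (SE 0.385, adjusted p = 0.0263) and by 1.33 in KO chow (SE 0.384, adjusted p = 0.0456), both against WT chow. Cbs, which diverts homocysteine to cysteine, rose by 0.96 in WT NASH (SE 0.225, adjusted p = 0.0154). With sex as a term the adjusted p was 0.0287 for Cdo1, 0.261 and 0.114 for Bhmt and 0.327 for Cbs. The list had 1 higher and 1 lower in WT NASH against WT chow. It had 1 lower with the knockout on either diet, and none called in KO NASH against KO chow. Its median log2 fold change was -0.63 in KO chow against WT chow and -0.43 in KO NASH against WT NASH, beside 0.00 over all genes in both. Counts of 0 to 2 in 8 genes are few beside 3.29% to 9.65% of all genes called in the 4 comparisons, and nothing is read from them about the list.

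Other oxidases and enzymes of drugs and amines (14 tested) included Aox3, an aldehyde oxidase that, like the FMO enzymes, carries FAD. Aox3 fell by 1.63 in KO chow against WT chow (SE 0.425, adjusted p = 0.0292; 0.0571 with sex as a term) and rose by 1.71 from KO chow to KO NASH (SE 0.426, adjusted p = 0.036), directions opposite to those of Fmo4. Sqle, the flavin-dependent squalene epoxidase of cholesterol synthesis, rose by 4.35 in WT NASH against WT chow (SE 0.822, adjusted p = 0.00379) and fell by 2.49 in KO NASH against WT NASH (SE 0.747, adjusted p = 0.040). Ephx2, the soluble epoxide hydrolase, fell by 1.77 in WT NASH (SE 0.221, adjusted p = 9.40e-05), from 2167 ± 543 to 634 ± 55.8 CPM (SD, n = 5), fell by 0.81 from KO chow to KO NASH (SE 0.216, adjusted p = 0.0441) and was higher by 0.80 in KO NASH than in WT NASH (SE 0.216, adjusted p = 0.025). With sex as a term the adjusted p in KO NASH against WT NASH was 0.165 for Sqle and 0.132 for Ephx2. The list had 1 higher and 1 lower in 3 of the comparisons, and 1 lower and none higher in KO chow against WT chow, against the same 3.29% to 9.65% of all genes.

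Among 20 transcription factors known to act on hepatic Fmo genes or to set the sex of liver expression, 3 were higher in WT NASH than in WT chow and 0 lower. The knockout comparisons, on chow and on the NASH diet, each had 0 higher and 2 lower, and KO NASH against KO chow had 1 higher and 0 lower. The shares of all genes called were 5.93%, 5.53%, 9.65% and 3.29% in WT NASH against WT chow, the knockout on chow, the knockout on the NASH diet and KO NASH against KO chow, and nothing is read from counts this small about the list. Ahr, the aryl hydrocarbon receptor, had mean CPM of 44.1 ± 8.74 (WT chow), 81.8 ± 7.91 (WT NASH), 21.1 ± 7.66 (KO chow) and 47.5 ± 10.9 (KO NASH; SD, n = 5). It passed the test in all 4 comparisons. On the log2 scale it was higher with the diet, by 0.89 in WT and by 1.17 in KO livers (adjusted p = 0.0217 and 0.0101), and lower with the knockout, at -1.06 on chow and -0.78 on the NASH diet (adjusted p = 0.00847 and 0.0301). The corresponding adjusted p-values with sex as a term were 0.191, 0.0106, 0.0111 and 0.117.

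Foxa3, a forkhead factor of hepatocytes, fell by 1.26 in KO chow against WT chow (SE 0.358, adjusted p = 0.0425; 0.0381 with sex as a term). Stat5b, which carries the growth hormone signal, rose by 1.31 in WT NASH (SE 0.312, adjusted p = 0.0172; 0.204 with sex as a term). Cux2, a factor of female liver, rose by 4.72 in WT NASH (SE 1.01, adjusted p = 0.00922), from 1.01 ± 0.955 to 27.4 ± 17.2 CPM (SD, n = 5), and fell by 5.19 from WT NASH to KO NASH (SE 1.03, adjusted p = 0.00389). With sex as a term the first of these was 1.29 (adjusted p = 0.525) and the second -3.15 (adjusted p = 0.0306). In the interaction none of the genes in the 5 lists passed.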

How the data were processed

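Liver RNA from 20 mice, 5 per group, was sequenced after Trizol extraction and a standard Illumina library preparation, per the labels' protocols. The submitters' processing notes name HISAT2 2.0.4 and the GRCm38 build. For the counting program, the annotation and the use of strand, nothing is stated in the sources used here. Values were deposited as raw counts of reads per gene symbol, with a different total in each library. HFD columns were taken as the NASH groups, since the remaining columns name chow.

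Counts were analysed with edgeR 4.0.16 in R 4.3.3. The filter filterByExpr (minimum count 10) kept 14440 genes with 99.9% of counts, libraries were scaled by TMM, and 1 quasi-likelihood model with 4 group coefficients was fitted to all 20 libraries. The threshold was an adjusted p (Benjamini-Hochberg) of 0.05. CPM and log2 values were computed from the counts. Log2 CPM of the members had no pseudocount. A pseudocount of 0.5 was added to CPM in the comparison of same-numbered libraries, and to counts in the Fmo5 to Fmo1 ratio. A library was read as male if 4 Y-linked genes summed to 100 counts or more. The length slope was fitted over 9520 genes with lengths from GENCODE M21. DESeq2 1.42.0 and limma 3.58.1 were alternatives. The procedure was tested on simulated data. Reads carry no molecular identifiers, so statements on depth cover counting error only.

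The 4 members, the gene lists, the marker lists and the alternatives were chosen with earlier results of these data known. Named genes are the 4 members, Pck1, up to 4 called genes of each list and the 3 genes of most similar pattern. Results of some single genes, including other rows of the family, are not reported here.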

Additional observations from a re-analysis of the deposited data

Results flagged for a closer look

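In 20 sets of 5 libraries (the 4 genes and the Fmo5 to Fmo1 ratio, each in 4 groups), 3 held a library that stood farther from its neighbour than Dixon's 95% critical value of 0.71 allows. Chance alone marks about 1 in 20 such sets. In KO NASH, replicate 4 was highest for Fmo1 at 275 CPM (Dixon's ratio 0.818) and for Fmo5 at 898 CPM (0.749). In KO chow, replicate 2 was lowest for Fmo2 at 61.5 CPM (0.755). KO NASH replicate 4 was not high for Fmo2 or Fmo4, at 33.2 and 10.9 CPM. Without it, Fmo5 differed between KO NASH and WT NASH by -0.01 in place of 0.16 on the log2 scale, and the call of Fmo2 in KO chow against WT chow was lost, which left 1 member called there.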

How the results depend on the processing

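Fmo4 kept its call in KO chow against WT chow under all 34 alternatives (log2 fold change 1.14 to 1.66, adjusted p 4.40e-05 to 0.0169). In KO NASH against KO chow it kept it under 34 of 35 (-1.37 to -0.79); among females alone, 1 library against 2, it was -0.79 (adjusted p = 0.582), where 0 members and 0 genes in all passed. The cause of the changes below was not tested, beyond that the fits on fewer libraries have fewer samples. Leaving out single libraries gave 1 to 2 members called in KO chow against WT chow, 0 to 1 in WT NASH against WT chow, 1 in KO NASH against KO chow and 0 in KO NASH against WT NASH and in the interaction. It turned the sign only of values near 0: Fmo1 in KO chow against WT chow (-0.13 to 0.36), Fmo2 (-0.30 to 0.18) and Fmo5 (-0.0067 to 0.32) in KO NASH against WT NASH. The log2 ratio of Fmo5 to Fmo1 then ranged from -0.88 to -0.43 (WT NASH against WT chow), -0.92 to -0.45 (KO chow against WT chow), 0.39 to 0.84 (KO NASH against WT NASH) and 0.41 to 0.87 (KO NASH against KO chow).

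WT NASH against WT chow had 0 members called, in place of 1, with no low-count filter, only the groups compared, sex as a term, sex and length slope as terms, males alone, KO NASH replicates 1 and 5 summed, and the libraries with a positive length slope alone (an alternative chosen after seeing the data); limma voom called 2. KO chow against WT chow had 1 called, in place of 2, with sex, sex and slope, males alone and positive slopes alone; limma voom called 3. KO NASH against WT NASH had 1, in place of 0, with limma voom (Fmo1), males alone (Fmo4, at 1.57, on 1 WT NASH male) and positive slopes alone (Fmo1). KO NASH against KO chow had 2 with DESeq2, and the interaction 3 with limma voom. Over all genes, calls in WT NASH against WT chow numbered 857 in the model used, 1496 with DESeq2, 5866 with limma voom, 360 with only the groups compared and 161 with sex as a term.

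Signs turned as follows. In WT NASH against WT chow, Fmo1 was 0.052 with the length slope as a term and 0.42 with positive slopes alone, Fmo4 was 0.26 with positive slopes alone, and Fmo2 was -1.31 among males alone. In KO chow against WT chow, Fmo1 was -0.48 with limma voom, -0.13 with sex as a term and -0.21 among males. In KO NASH against WT NASH, sex as a term gave Fmo2 0.39 and Fmo5 -0.039, sex and slope gave Fmo1 0.17 and Fmo2 0.28, and males alone gave Fmo1 0.27, Fmo2 2.07 and Fmo5 -0.28. In KO NASH against KO chow, Fmo5 was 0.055 with the length slope, 0.032 among females and 0.029 with positive slopes alone. In the interaction, Fmo1 was 0.10 with sex, 0.14 with sex and slope and 0.49 among males, where Fmo2 was 0.73 and Fmo4 0.24. The ratio was 0.55 in WT NASH against WT chow and -0.58 in KO NASH against WT NASH among males, both resting on 1 WT NASH male.

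Of the correlations, Fmo1 with Fmo4 did not pass by rank (0.504), without 2 libraries (0.587), among males (0.499) or without subtracting group means (0.476). Fmo2 with Fmo4 did not pass by rank (0.394), without 2 libraries (0.219) or among males (0.375). Fmo1 with Fmo5 passed among males (0.746), by the permutation whose p-values are too small, and Fmo1 with Fmo2 turned to -0.016 there. Fmo4 with Fmo5, at -0.01, turned to 0.138, 0.287, 0.431 and 0.033 under the 4 alternatives.

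The labels do not say that the replicate numbers pair the mice. Same-numbered libraries correlated at -0.403 to 0.576. Mean r of same-numbered and of other pairs was 0.267 and -0.071 for WT chow with KO chow. It was 0.224 and -0.045 for WT NASH with KO chow, and 0.144 and -0.044 for WT chow with WT NASH. For KO NASH it was 0.024 and -0.009 with WT NASH, -0.047 and 0.012 with WT chow, and -0.102 and 0.027 with KO chow. Whether same-numbered libraries share a source was not tested. With the number as a replicate block, members called stayed at 1, 2, 0, 1 and 0 in the 5 comparisons, and all-gene calls were 1026, 883, 1457, 535 and 4, against 857, 798, 1393, 475 and 20. The block changed no call of a member. Depth was lowest in WT NASH replicate 4, where 1 CPM stood for 6.80 counts, and Fmo4, the lowest of the 4 genes, was at 4.12 CPM there.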
